A study of Homo sapiens with 24 samples.

Results

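The genes nearest to GATA1 on human chromosome X, with GATA1 itself, were followed across a CRISPR interference (CRISPRi) experiment: GATA1, HDAC6, WAS, SUV39H1, GLOD5, ERAS, PCSK1N, PQBP1, TIMM17B and SLC35A2. They are 10 of the 21925 entries in the count table, namely GATA1 and each gene whose transcript start lies up to 124.3 kb from its own, and position alone chose them. Each of the 10 had enough counts to be tested, with 13147 genes tested in all. Polyadenylated RNA was sequenced from K562, a human leukaemia cell line of erythroid and megakaryocyte character. All groups expressed a nuclease-dead Cas9 joined to the KRAB repressor, which doxycycline had induced for 24 hours, and each library came from 10000 lysed cells transduced with 1 single guide RNA (sgRNA). The study asked what happens to gene expression when eHDAC6, a candidate GATA1 enhancer, is repressed. The eHDAC6 group comprised 6 libraries, 3 biological replicates of each of 2 sgRNAs (eHDAC6-Guide1 and eHDAC6-Guide2). The GATA1TSS group, whose sgRNAs were directed at the start site of GATA1, likewise comprised 6 libraries from GATA1TSS-Guide1 and GATA1TSS-Guide2. The control group (NC) comprised 12 libraries, 3 for each of 4 non-targeting sgRNAs. The sources used here do not say whether the line was a single clone.

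In CRISPRi the KRAB domain recruits factors that deposit repressive chromatin marks around the site that the sgRNA binds, so a start site or a distal enhancer can be silenced without cutting the DNA. GATA1 encodes the zinc-finger transcription factor on which erythroid and megakaryocyte differentiation depends, and it binds WGATAR motifs, in which W stands for A or T and R for A or G. HDAC6, its downstream neighbour, encodes a largely cytoplasmic deacetylase whose substrates include tubulin. Among the others, WAS encodes the actin regulator of blood cells that is mutated in Wiskott-Aldrich syndrome, and SUV39H1 encodes a histone methyltransferase of heterochromatin. ERAS encodes a Ras-family GTPase described in embryonic stem cells, and PCSK1N a secreted inhibitor of a prohormone convertase of neuroendocrine cells. PQBP1 encodes a polyglutamine-binding splicing factor, TIMM17B a subunit of the mitochondrial inner-membrane translocase, and SLC35A2 the UDP-galactose transporter of the Golgi. GLOD5 encodes a protein with a glyoxalase domain.

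The 10 genes cover 227.05 kb (hg19, chromosome X, 48542186 to 48769235, in the deposited RefSeq gene models), 3 of them below GATA1 and 6 above it. GATA1 itself lies at 48644982 to 48652717 on the plus strand and has 6 exons, and HDAC6 lies at 48660487 to 48683380 on the same strand with 29 exons. The start of HDAC6 is 15.5 kb from that of GATA1. Below GATA1 stand GLOD5 (48620154 to 48632064, plus strand, start 24.8 kb away), SUV39H1 (48553945 to 48567406, plus strand, 89.9 kb) and WAS (48542186 to 48549817, plus strand, 102.8 kb). Above it follow ERAS (48684923 to 48688279, plus strand, 39.9 kb), PCSK1N (48689502 to 48694040, minus strand, 49.1 kb), PQBP1 (48755195 to 48760422, plus strand, 110.2 kb), TIMM17B (48750730 to 48755426, minus strand, 110.4 kb) and SLC35A2 (48760457 to 48769235, minus strand, 124.3 kb). The position rule thus ended at SLC35A2. The nearest gene outside it on the upper side was PIM2, 131.4 kb away, and on the lower side WDR13, 188.8 kb away.

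Several members lie close together, but only PQBP1 and TIMM17B have exon bases in common. ERAS begins 1542 bp past the end of HDAC6 on the same strand, PQBP1 ends 34 bp from the end of SLC35A2, and PQBP1 and TIMM17B overlap head to head by 232 bp on opposite strands, with 27 exon bases in common. The library protocol keeps strand, per the labels, but the sources used here do not say whether counting used it, so the values of PQBP1 and TIMM17B are uncertain to that extent.

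RefSeq promoter windows (GRCh38.p14, 250 bases before to 50 bases after the annotated start) were found for 9 of the 10 genes, all but GLOD5. The windows of GATA1, HDAC6 and PQBP1 are shown. The first holds the annotated start of the gene whose start site was targeted. The second belongs to the gene called in opposite directions with the elements against all NC libraries. The third is the shared head-to-head start of PQBP1 and TIMM17B. They are written 5′ to 3′ on the plus strand, with CpG dinucleotides in capitals, at chrX:48786340-48786639, chrX:48801817-48802116 and chrX:48897680-48897979.
GATA1 promoter: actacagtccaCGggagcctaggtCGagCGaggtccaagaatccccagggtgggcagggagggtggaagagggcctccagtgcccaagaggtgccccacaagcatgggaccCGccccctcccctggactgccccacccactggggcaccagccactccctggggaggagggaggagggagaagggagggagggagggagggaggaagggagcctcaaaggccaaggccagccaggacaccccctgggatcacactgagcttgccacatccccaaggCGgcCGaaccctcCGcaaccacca
HDAC6 promoter: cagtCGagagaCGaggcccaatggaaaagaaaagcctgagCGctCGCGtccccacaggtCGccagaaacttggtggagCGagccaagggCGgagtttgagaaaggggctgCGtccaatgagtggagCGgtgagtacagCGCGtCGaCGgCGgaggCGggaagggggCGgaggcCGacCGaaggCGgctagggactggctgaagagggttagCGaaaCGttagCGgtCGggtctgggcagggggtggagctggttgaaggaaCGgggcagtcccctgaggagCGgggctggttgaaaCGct
PQBP1 promoter: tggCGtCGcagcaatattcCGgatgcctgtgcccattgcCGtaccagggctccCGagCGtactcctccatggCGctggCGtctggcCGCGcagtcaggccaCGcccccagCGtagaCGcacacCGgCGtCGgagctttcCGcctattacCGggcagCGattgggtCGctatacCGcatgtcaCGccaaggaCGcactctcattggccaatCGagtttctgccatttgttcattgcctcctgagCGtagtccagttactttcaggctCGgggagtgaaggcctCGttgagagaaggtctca
The GATA1 window held 7 CpG dinucleotides at 67.7% GC, against 27 at 64.3% GC for HDAC6 and 27 at 60.7% GC for PQBP1. Over all 35116 promoter windows the medians were 14 CpG dinucleotides and 58.7% GC, 39.3% of windows had no more CpG dinucleotides than GATA1, and 28.2% had at least as many as HDAC6. The PQBP1 and TIMM17B windows share 261 bases. The WGATAR motif was searched on both strands as 4 forms, none of which contains another, and none was found in the 9 windows. Of all windows, 10.3% contained AGATAA, 6.63% contained AGATAG, 7.53% contained TGATAA, 5.80% contained TGATAG and 25.0% contained at least 1 of them. No match says only that these letters are absent from these 300 bases. The windows follow GRCh38 starts, not those of the deposited hg19 models. Judged by the coordinates of its neighbours, the WAS window seems to lie upstream of the deposited WAS start. Target positions of the sgRNAs were not used here.

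Library totals ran from 4290343 to 23205811 counts, with a median of 13479250.5, and the lowest was GATA1TSS-Guide2 replicate 2, so the weakly expressed members rest on few counts. Levels are given as CPM, counts scaled to a common library total with edgeR's TMM factors, and as RPKM, the same per kilobase of exon, where genes are compared with each other. The 12 NC libraries were not alike: on principal component 1, which held 26.1% of their variance, replicates 2 and 3 of NC-Guide3 and NC-Guide4 (called the 4 here) stood apart from the other 8. Results against NC are given with all 12 libraries, and with the 4 or the 8 alone where that ends a call or moves a value by more than 1.5 times. The summed level of 6 stress-response genes stood at 505 to 798 CPM with eHDAC6 and 389.9 to 669.7 CPM with GATA1TSS, against 729 to 845 CPM in the 4 and 1772 to 2645 CPM in the 8, and their part in the results was not tested. All 8 listed K562 genes were above 1 CPM, and none of 3 hepatocyte genes was. The summed level of the K562 genes moved with the groups as well, at 6422 to 9206 CPM with eHDAC6 and 6331 to 10468 CPM with GATA1TSS, against 7675 to 8822 CPM in the 4 and 11906 to 14185 CPM in the 8, and its part was likewise not tested. Of the B lymphocyte, T lymphocyte, monocyte and granulocyte, fibroblast and epithelial lists, 1 gene each was above 1 CPM.

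With eHDAC6, 4 of the 10 genes were called, that is, had an edgeR adjusted p under 0.05: GATA1, HDAC6 and GLOD5 fell and WAS rose. With GATA1TSS, 5 were called: GATA1 fell, and HDAC6, WAS, ERAS and PCSK1N rose. ERAS reached the test through 2 GATA1TSS libraries and 1 NC library, and would not have without the GATA1TSS libraries. The background was high: 31.1% of all genes tested were called with eHDAC6 (15.8% higher and 15.3% lower) and 27.2% with GATA1TSS (13.5% higher and 13.7% lower), so the 2 counts alone say little about these genes. The members' median log2 change was -0.08 with eHDAC6, against -0.0086 over all genes tested, and 0.17 with GATA1TSS, against -0.0029. Set directly against each other, the elements differed in 4 of the 10 genes (GATA1, HDAC6, GLOD5 and PQBP1), where 1.53% of all genes tested were called (0.875% higher and 0.654% lower with eHDAC6), and GATA1 and HDAC6 ranked 1 and 2 of 13147 by p. Both comparisons with NC share the same control libraries. With the counts of each sgRNA summed to 1 value, 0 of the 10 genes passed with eHDAC6 against NC, where 1.93% of all genes tested did, and 3 with GATA1TSS, where 4.59% did. Between the elements no gene of the 13147 passed in that fit.

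**Figure D1:**
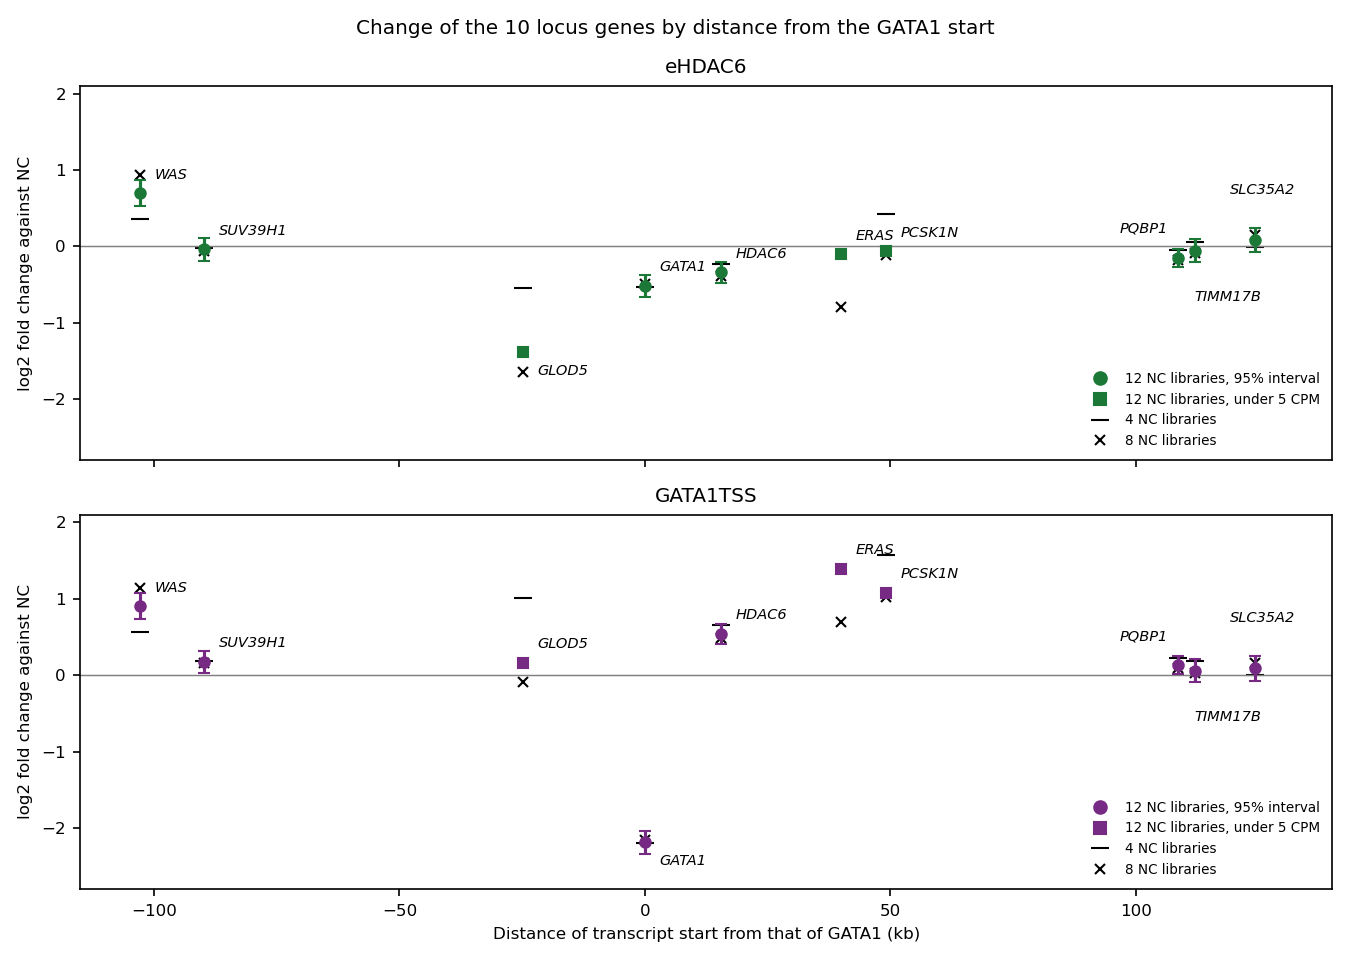
Fold change (log2, y axis) of each of the 10 genes with eHDAC6 (above) and GATA1TSS (below) against NC, by distance of its transcript start from that of GATA1 in kb (x axis, negative below GATA1). Circles (with unadjusted 95% intervals) and, for genes under 5 CPM, squares are against all 12 NC libraries, dashes are against the 4 and crosses against the 8; PQBP1 and TIMM17B are drawn slightly apart, and ERAS has no dash because it had no count in the 4. GATA1 is at -0.52 above and -2.19 below, HDAC6 at -0.34 and 0.54, and SUV39H1, PQBP1, TIMM17B and SLC35A2 lie between -0.15 and 0.17 in both panels against the 12.

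GATA1 was lower with both elements, and to a different depth with each sgRNA of GATA1TSS. Its level in the eHDAC6 libraries was 242 CPM at the lowest, 254 at the median and 267 at the highest. In the GATA1TSS libraries the corresponding values were 42.1, 78.2 and 130.4 CPM, and in the NC libraries 281, 369.7 and 395 CPM. Every eHDAC6 and GATA1TSS library lay below every NC library, and the 2 elements did not overlap each other. The means were 254 ± 8.72 CPM with eHDAC6 and 84.8 ± 37.1 CPM with GATA1TSS (SD, n = 6 each), and 363 ± 28.9 CPM in NC (n = 12). The fitted level was 30.1% lower with eHDAC6 (log2 change -0.52, SE 0.07, edgeR adjusted p = 6.52e-06) and 78.1% lower with GATA1TSS (log2 change -2.19, SE 0.07, edgeR adjusted p = 2.81e-17). Set against each other, eHDAC6 minus GATA1TSS, the elements differed by 1.67 (95% interval 1.51 to 1.84, edgeR adjusted p = 1.13e-13). In bulk RNA, fewer cells with full expression and less transcript in every cell cannot be told apart.

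By sgRNA, GATA1 stood at 256, 258 and 267 CPM with eHDAC6-Guide2 and at 253, 242 and 246 CPM with eHDAC6-Guide1. These levels are 71.6% and 68.1% of the NC mean. GATA1TSS-Guide2 gave 60.2, 42.1 and 57.0 CPM and GATA1TSS-Guide1 130.4, 96.2 and 123 CPM, or 14.6% and 32.1% of the NC mean. Between the eHDAC6 sgRNAs the log2 difference, Guide2 minus Guide1, was 0.07 (95% interval -0.15 to 0.30, edgeR adjusted p = 0.9997). Between those of GATA1TSS it was -1.10 (SE 0.11, edgeR adjusted p = 2.59e-06), rank 2 of all genes tested.

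HDAC6 was the only member called in opposite directions with the elements against all 12 NC libraries. SUV39H1, GLOD5, ERAS, PCSK1N, PQBP1 and TIMM17B also had values of opposite sign, but none of them was called with both elements. The lowest, median and highest levels of HDAC6 were 122, 139.9 and 148 CPM with eHDAC6, 212, 246 and 299.9 CPM with GATA1TSS, and 129, 175 and 205 CPM in NC. All 6 GATA1TSS libraries were above all 12 NC libraries, while the eHDAC6 libraries overlapped the lowest 2 NC libraries (NC-Guide2 replicate 1 and NC-Guide3 replicate 2). The fitted change was -0.34 with eHDAC6 (SE 0.07, edgeR adjusted p = 4.33e-04), or 20.9% lower, and 0.54 with GATA1TSS (SE 0.06, edgeR adjusted p = 4.91e-07), or 45.3% higher. The fall with eHDAC6 depended on the controls. It was -0.23 (edgeR adjusted p = 0.0776) against the 4, whose mean was 161 ± 11.2 CPM (SD, n = 4), and -0.39 (edgeR adjusted p = 4.79e-05) against the 8, at 182 ± 24.9 CPM (n = 8). With the control subset as a term in the model it was -0.18 (edgeR adjusted p = 0.343). The rise with GATA1TSS was called against the 4 and against the 8, at 0.65 and 0.49. For eHDAC6 minus GATA1TSS, a contrast without NC libraries, HDAC6 had a value of -0.88 (95% interval -1.03 to -0.72, edgeR adjusted p = 5.33e-08).

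Both sgRNAs of an element gave HDAC6 the same direction. The values were 141, 122 and 134 CPM with eHDAC6-Guide2, 143, 139 and 148 CPM with eHDAC6-Guide1, 293, 252 and 299.9 CPM with GATA1TSS-Guide2 and 230.0, 239.8 and 212 CPM with GATA1TSS-Guide1. GATA1TSS-Guide2, which left the least GATA1, had the 3 highest HDAC6 levels of all libraries, without overlap with Guide1, but the log2 difference of 0.31 did not pass (SE 0.10, edgeR adjusted p = 0.0977). For HDAC6 it did pass with only the 4 as controls in the fit (edgeR adjusted p = 0.0169). Against NC, HDAC6 was called with all 4 sgRNAs, at -0.40 and -0.28 for eHDAC6-Guide2 and eHDAC6-Guide1 and at 0.70 and 0.38 for GATA1TSS-Guide2 and GATA1TSS-Guide1. Against the 4, neither eHDAC6 sgRNA passed (-0.28 and -0.17, edgeR adjusted p = 0.0656 and 0.390), and both GATA1TSS sgRNAs did (0.81 and 0.50). The background against the 4 was 1.7% and 0.389% of all genes tested for eHDAC6-Guide2 and eHDAC6-Guide1, and 19.2% and 0.35% for GATA1TSS-Guide2 and GATA1TSS-Guide1.

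**Figure D2:**
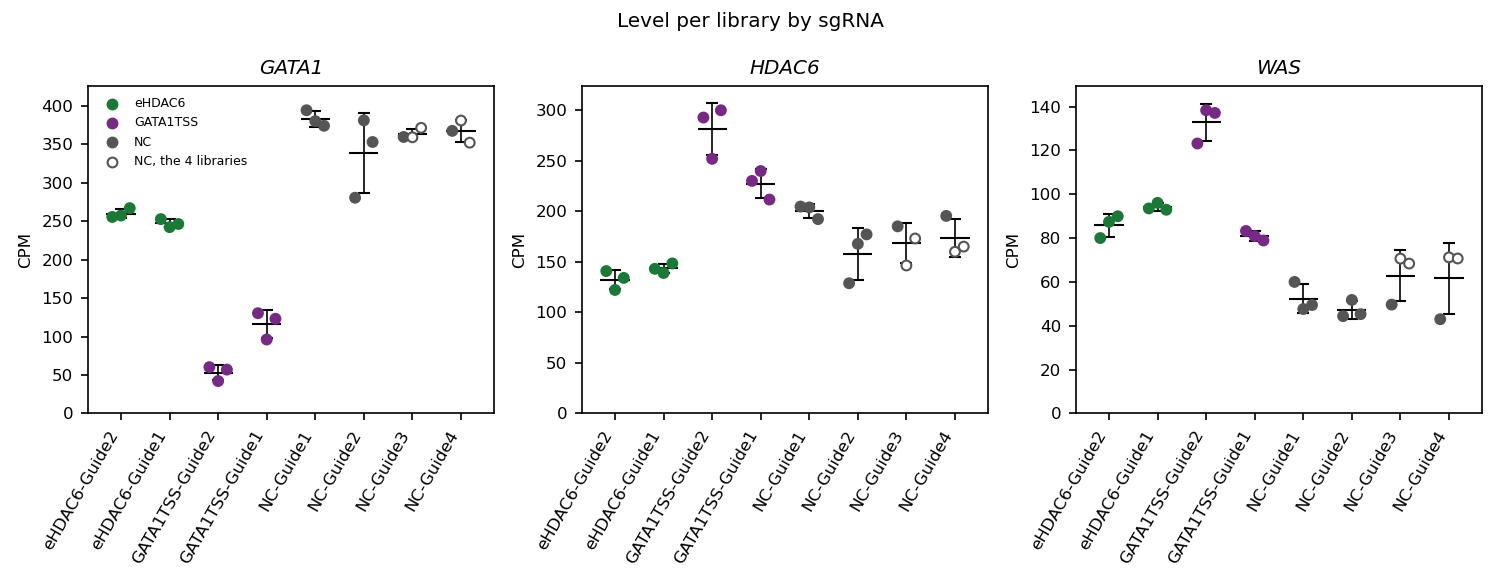
Levels of GATA1, HDAC6 and WAS in CPM (y axis) in every library, by sgRNA (x axis), with the mean as a bar and the SD as whiskers (n = 3 libraries per sgRNA); open circles are the 4 NC libraries that stood apart. GATA1 is below all NC libraries with both elements, HDAC6 is above all NC libraries with GATA1TSS only, and WAS is above all NC libraries with both elements, with its NC values at 68.4 to 71.2 CPM in the 4 and 43.0 to 59.99 CPM in the 8.

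WAS, the member farthest from GATA1 on the lower side, rose with both elements. It ranged from 80.0 to 96.1 CPM with eHDAC6 (median 91.4) and from 78.9 to 138 CPM with GATA1TSS (median 103), against 43.0 to 71.2 CPM in NC (median 50.7). All 12 repressed libraries exceeded all 12 NC libraries. Of all genes tested, 1.66% had eHDAC6 libraries that did not overlap the 12 NC libraries, as did GATA1 and WAS here, and 1.79% had such GATA1TSS libraries, as did GATA1, HDAC6 and WAS. The fitted changes were 0.69 with eHDAC6 (SE 0.08, edgeR adjusted p = 2.72e-06) and 0.90 with GATA1TSS (SE 0.08, edgeR adjusted p = 1.73e-08). WAS also differed inside the controls, at 70.2 ± 1.26 CPM in the 4 (SD, n = 4) and 48.9 ± 5.37 CPM in the 8 (n = 8), without overlap. Against the 4 the changes were 0.35 with eHDAC6 (edgeR adjusted p = 0.00137) and 0.56 with GATA1TSS (edgeR adjusted p = 1.01e-06), and against the 8 they were 0.94 and 1.14. With the control subset as a term in the model the eHDAC6 change was 0.31 and did not pass (edgeR adjusted p = 0.0628).

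By sgRNA, the order of the WAS levels was not that of the GATA1 levels. Its mean was 153% of the NC mean with eHDAC6-Guide2 and 168% with eHDAC6-Guide1, at which GATA1 was at 71.6% and 68.1%. With GATA1TSS-Guide2 it was 237%, and with GATA1TSS-Guide1, where GATA1 was at 32.1%, it was 145%. The 3 GATA1TSS-Guide1 libraries (83.2, 80.9 and 78.9 CPM) were below the 3 of eHDAC6-Guide1 (93.5, 96.1 and 92.9 CPM), a pair that was not tested. Between the GATA1TSS sgRNAs WAS differed by 0.71 (Guide2 minus Guide1, SE 0.14, edgeR adjusted p = 0.00290), and without GATA1TSS-Guide2 the GATA1TSS change was 0.55. Against the 4, WAS was called with each eHDAC6 sgRNA (0.29 and 0.42 for Guide2 and Guide1) and with GATA1TSS-Guide2 (0.91), and not with GATA1TSS-Guide1 (0.21, edgeR adjusted p = 0.255). The elements themselves did not differ past the threshold (-0.21, 95% interval -0.40 to -0.01, edgeR adjusted p = 0.313), and that value turned to 0.15 without GATA1TSS-Guide2. Without GATA1TSS-Guide1 it was -0.56 for WAS and passed (edgeR adjusted p = 0.00721).

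SUV39H1, which begins 4.13 kb past the end of WAS, showed no called change against the 12 controls. It ranged from 48.9 to 60.9 CPM with eHDAC6 (median 53.9) and from 47.3 to 71.3 CPM with GATA1TSS (median 65.3), against 44.3 to 63.3 CPM in NC (median 57.2). The ranges overlapped, although 4 of the 6 GATA1TSS libraries were above every NC library. The log2 change was -0.04 with eHDAC6 (95% interval -0.19 to 0.11, edgeR adjusted p = 0.729) and 0.17 with GATA1TSS (95% interval 0.03 to 0.32, edgeR adjusted p = 0.0735). The lowest GATA1TSS value came from the shallowest library, GATA1TSS-Guide2 replicate 2, and without it the change was 0.24 and passed (edgeR adjusted p = 0.00544), as it did without the sgRNA NC-Guide4 (0.20, edgeR adjusted p = 0.0467) and, with all libraries, without TMM factors (0.21, edgeR adjusted p = 0.0293). The eHDAC6 minus GATA1TSS value of SUV39H1 was -0.21 (95% interval -0.38 to -0.04, edgeR adjusted p = 0.221).

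The 3 weakly expressed members, GLOD5, ERAS and PCSK1N, averaged under 5 CPM in every group. GLOD5 had 4 to 17 counts per library with eHDAC6, 8 to 96 with GATA1TSS and 13 to 49 in NC. That is 0.303, 0.810 and 1.51 CPM with eHDAC6 (lowest, median and highest), 1.61, 2.09 and 4.01 CPM with GATA1TSS, and 0.845, 2.26 and 3.31 CPM in NC. The eHDAC6 libraries were the lowest as a group, with 3 of 6 below every NC library. The log2 change of GLOD5 was -1.38 with eHDAC6 (SE 0.28, edgeR adjusted p = 6.35e-04), a fall, and 0.16 with GATA1TSS (edgeR adjusted p = 0.654). Its level differed inside the controls, at 0.845 to 1.80 CPM in the 4 and 1.91 to 3.31 CPM in the 8, without overlap. Against the 4 the eHDAC6 change was -0.54 and did not pass (edgeR adjusted p = 0.478), while the GATA1TSS change was 1.01 and did (edgeR adjusted p = 0.0247). By sgRNA the eHDAC6 changes were -1.73 for Guide2 and -1.03 for Guide1, both called against the 12, and -0.89 and -0.19 against the 4, neither called (edgeR adjusted p = 0.388 and 0.901). A term for the control subset gave GLOD5 an eHDAC6 change of -0.63 (edgeR adjusted p = 0.417). Between the elements GLOD5 differed by -1.54 (SE 0.30, edgeR adjusted p = 0.00742), and without eHDAC6-Guide2 or without GATA1TSS-Guide2 it was -1.19 and -1.20 and did not pass.

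ERAS, the neighbour just past HDAC6, rested on 2 to 5 counts per library with eHDAC6, 2 to 18 with GATA1TSS and 0 to 8 in NC. Its levels were 0.128 to 0.379 CPM with eHDAC6 (median 0.175), 0.455 to 0.855 CPM with GATA1TSS (median 0.511) and 0 to 1.005 CPM in NC (median 0.376). None of the 4 held a count, and each of the 8 held at least 2. Mean levels were 62.2% of the NC mean with eHDAC6 and 172% with GATA1TSS. The fitted log2 changes behind the test were -0.10 with eHDAC6 (edgeR adjusted p = 0.951) and 1.39 with GATA1TSS (edgeR adjusted p = 0.0191), the second of which was called. ERAS was tested because 3 libraries reached the minimum of 0.742 CPM, 2 with GATA1TSS and 1 in NC, so this call is not independent of the filter. Against the 8 the changes were -0.79 with eHDAC6 (edgeR adjusted p = 0.232) and 0.70 with GATA1TSS (edgeR adjusted p = 0.177), and neither passed. For GATA1TSS, without the sgRNA NC-Guide3 it was 0.66 (edgeR adjusted p = 0.235), and the call was also lost without GATA1TSS-Guide1 replicate 1 or GATA1TSS-Guide2 replicate 3. Against the 4 ERAS came through the filter by GATA1TSS libraries alone, and its calls there support nothing. The eHDAC6 libraries held 17 ERAS counts together and the GATA1TSS libraries 69. With 0 counts in the 4, a fold change against them has no defined size. Among the 4 NC sgRNAs ERAS was the 1 member of the 10 that differed (edgeR adjusted p = 0.0495), where 12.3% of all genes tested did. The eHDAC6 minus GATA1TSS value of ERAS was -1.49 and did not pass with all 12 in the fit (edgeR adjusted p = 0.150), and it passed with only the 8 in it (edgeR adjusted p = 0.0407). ERAS counts amounted to 0.157% of HDAC6 counts with eHDAC6, 0.245% with GATA1TSS and 0.177% in NC. The NC share pools unlike libraries: 0 ERAS counts over 9004 HDAC6 counts in the 4, and 48 over 18056 in the 8.

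PCSK1N, transcribed towards ERAS from the opposite strand, rose with 1 of the 4 targeted sgRNAs. It had 0.303, 0.401 and 1.06 CPM with eHDAC6 (lowest, median and highest), 0.568, 1.10 and 2.17 CPM with GATA1TSS, and 0, 0.507 and 1.03 CPM in NC. The 3 libraries of GATA1TSS-Guide2 (2.17, 1.37 and 1.62 CPM) were above every NC library, and those of GATA1TSS-Guide1 (0.568, 0.705 and 0.828 CPM) lay within the NC range. Its log2 change with GATA1TSS was 1.076 (SE 0.28, edgeR adjusted p = 0.00567), and with eHDAC6 it was -0.06 (edgeR adjusted p = 0.914). By sgRNA it was 1.75 for GATA1TSS-Guide2 (edgeR adjusted p = 2.42e-04) and 0.40 for GATA1TSS-Guide1 (edgeR adjusted p = 0.526), and without GATA1TSS-Guide2 the element was not called (0.40, edgeR adjusted p = 0.534). Nor was it with the control subset as a term (1.22, edgeR adjusted p = 0.155). The difference between the GATA1TSS sgRNAs was 1.35 and did not pass (edgeR adjusted p = 0.0669), and the eHDAC6 minus GATA1TSS value was -1.14 (edgeR adjusted p = 0.0909). Without the sgRNA GATA1TSS-Guide1 the second was -1.81 and passed (edgeR adjusted p = 0.00735). PCSK1N also passed in both with only the 4 in the fit (edgeR adjusted p = 0.0302 and 0.0433), and between the elements in a fit of those 2 groups (edgeR adjusted p = 0.0376), but in these fits it had enough counts only through GATA1TSS libraries.

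**Figure D3:**
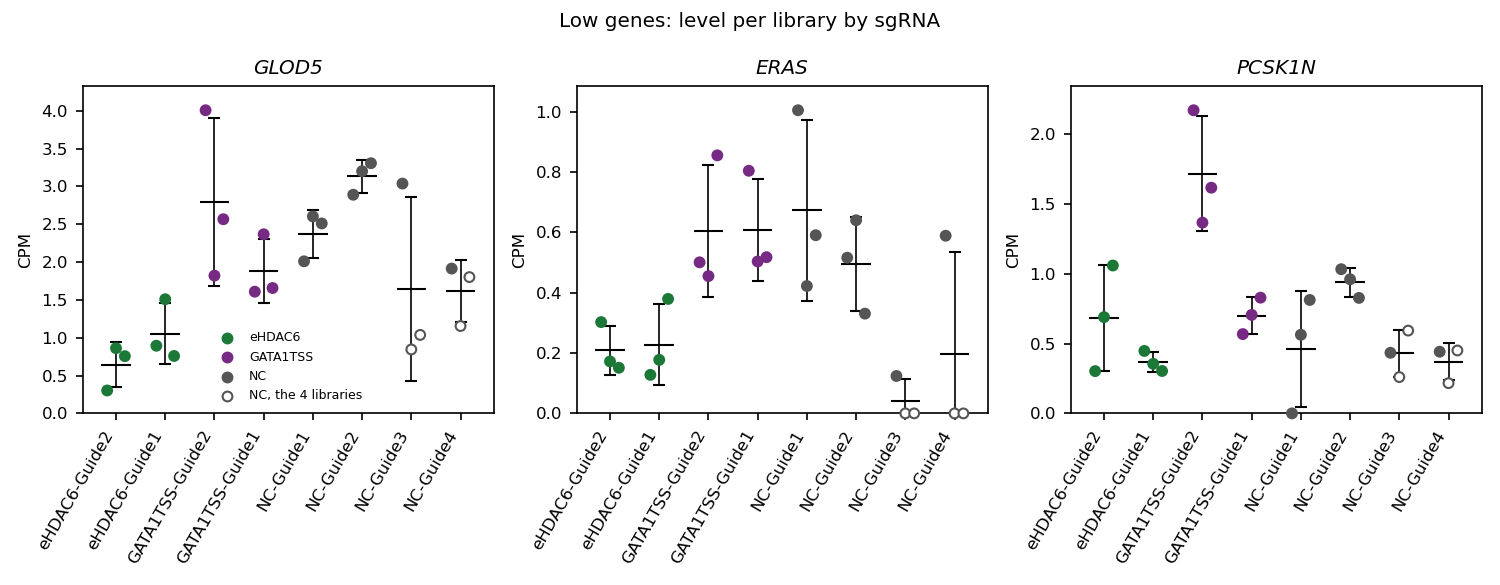
Levels of the weakly expressed genes GLOD5, ERAS and PCSK1N in CPM (y axis) in every library, by sgRNA (x axis), with the mean as a bar and the SD as whiskers (n = 3 libraries per sgRNA); open circles are the 4 NC libraries that stood apart. ERAS is at 0 in those 4, GLOD5 is at 1.80 CPM or less in them, and GATA1TSS-Guide2 has the 3 highest PCSK1N values.

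PQBP1, TIMM17B and SLC35A2, the 3 members farthest above GATA1, were not called with either element against the 12 NC libraries. PQBP1 ranged from 61.2 to 67.7 CPM with eHDAC6 (median 65.5) and from 71.8 to 87.3 CPM with GATA1TSS (median 78.3), against 64.7 to 89.4 CPM in NC (median 70.5). All 6 eHDAC6 libraries were below all 6 GATA1TSS libraries, and each element overlapped the controls. Its log2 change was -0.15 with eHDAC6 (95% interval -0.27 to -0.03, edgeR adjusted p = 0.0565) and 0.13 with GATA1TSS (95% interval 0.01 to 0.24, edgeR adjusted p = 0.106). The eHDAC6 change passed against the 8 (-0.18, edgeR adjusted p = 0.0257) and not against the 4 (-0.05, edgeR adjusted p = 0.737). The GATA1TSS change passed against the 4 (0.23, edgeR adjusted p = 0.0123) and not against the 8 (0.09, edgeR adjusted p = 0.267). Between the elements PQBP1 differed by -0.27 (SE 0.07, edgeR adjusted p = 0.0327). That call was lost in 12 of 32 fits that left out a library or an sgRNA, among them those without sgRNA eHDAC6-Guide1, eHDAC6-Guide2 or GATA1TSS-Guide2. Against NC, PQBP1 passed with eHDAC6 in 5 of those fits, which lacked a library of NC-Guide1 or NC-Guide3 or the sgRNA NC-Guide3, and with GATA1TSS in 2, without replicate 1 of NC-Guide1 or of NC-Guide3. By sgRNA, against the 12, PQBP1 was called with GATA1TSS-Guide2 (0.21, edgeR adjusted p = 0.0420), and not without the filter on low counts (edgeR adjusted p = 0.0661). Against the 8 that value was 0.17 and did not pass (edgeR adjusted p = 0.104), while eHDAC6-Guide1 did (-0.22, edgeR adjusted p = 0.0385).

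TIMM17B, which shares its start region with PQBP1 in the opposite orientation, had a wide spread among the controls. It ranged from 70.9 to 81.8 CPM with eHDAC6 (median 76.0) and from 69.6 to 90.3 CPM with GATA1TSS (median 81.0), against 60.2 to 90.2 CPM in NC (median 80.0). Its log2 change was -0.06 with eHDAC6 (95% interval -0.21 to 0.10) and 0.06 with GATA1TSS (95% interval -0.09 to 0.21), and the difference between the elements was -0.11 (95% interval -0.28 to 0.06). SLC35A2 ranged from 35.6 to 44.7 CPM with eHDAC6 (median 37.1) and from 33.4 to 43.5 CPM with GATA1TSS (median 38.7), against 24.5 to 42.1 CPM in NC (median 36.2). It was not called either, at 0.08 with eHDAC6 (95% interval -0.08 to 0.25) and 0.09 with GATA1TSS (95% interval -0.07 to 0.25). The intervals against NC bound the changes only for all NC libraries together, and do not show that the levels were equal. Against the 4, TIMM17B was at 0.064 with eHDAC6 and 0.18 with GATA1TSS (95% interval 0.03 to 0.33, edgeR adjusted p = 0.133). Against the 8, TIMM17B was at -0.088 and 0.024. SLC35A2 was at -0.0077 with eHDAC6 and 2.82e-04 with GATA1TSS against the 4. Against the 8, SLC35A2 was at 0.15 and 0.16 (95% interval -0.03 to 0.34 for both). None of these values was called.

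**Figure D4:**
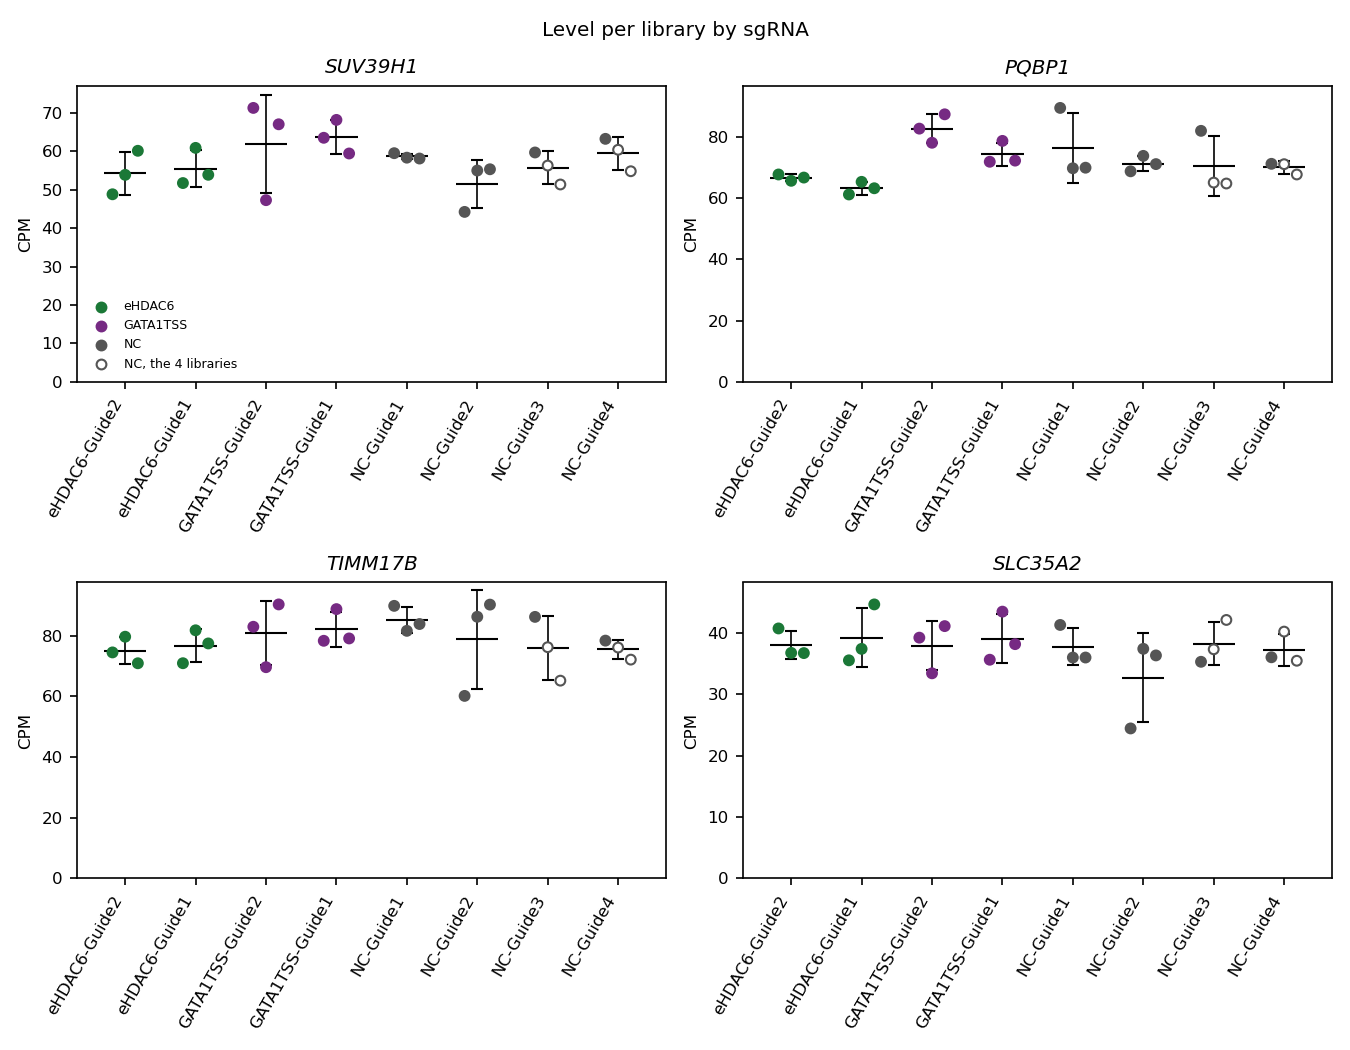
Levels of SUV39H1, PQBP1, TIMM17B and SLC35A2 in CPM (y axis) in every library, by sgRNA (x axis), with the mean as a bar and the SD as whiskers (n = 3 libraries per sgRNA); open circles are the 4 NC libraries that stood apart. The groups overlap in all 4 panels, except that the eHDAC6 libraries of PQBP1, at up to 67.7 CPM, are below those of GATA1TSS, at 71.8 CPM or more.

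Against the 4 alone, ERAS and PCSK1N had enough counts only through GATA1TSS libraries and are left out of this count. Of the other 8 genes, 2 were called with eHDAC6 (GATA1 and WAS), where 1.49% of all genes tested were, and 5 with GATA1TSS (GATA1, HDAC6, WAS, GLOD5 and PQBP1), where 10.2% were. Against the 8, 5 were called with eHDAC6 (the background was 37.1%) and 4 with GATA1TSS (33.1%). By sgRNA against the 12, eHDAC6-Guide2 had 4 calls where 19.2% of all genes tested were called, and eHDAC6-Guide1 had the same 4 (GATA1, HDAC6, WAS and GLOD5) where 16.7% were. GATA1TSS-Guide2 had 5 (GATA1, HDAC6, WAS, PCSK1N and PQBP1, background 24.8%) and GATA1TSS-Guide1 had 3 (GATA1, HDAC6 and WAS, background 12%). The GATA1TSS sgRNAs differed from each other in 2 genes, GATA1 and WAS, where 3.48% of all genes tested differed. The eHDAC6 sgRNAs differed in 0 of the 10 by edgeR, with 0 at an unadjusted p under 0.05 and the smallest p, 0.136, for PCSK1N, and 0.0152% of all genes tested differed.

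These tests measure the spread between replicates of an sgRNA. With the sgRNA means as units, 2 against 4, a two-sided exact permutation test cannot give a p below 0.0667. GATA1, HDAC6, WAS, GLOD5 and PQBP1 reached that value with eHDAC6, and GATA1, HDAC6 and WAS with GATA1TSS. Of all genes tested, 14.9% reached it with eHDAC6 and 14.9% with GATA1TSS.

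**Figure D5:**
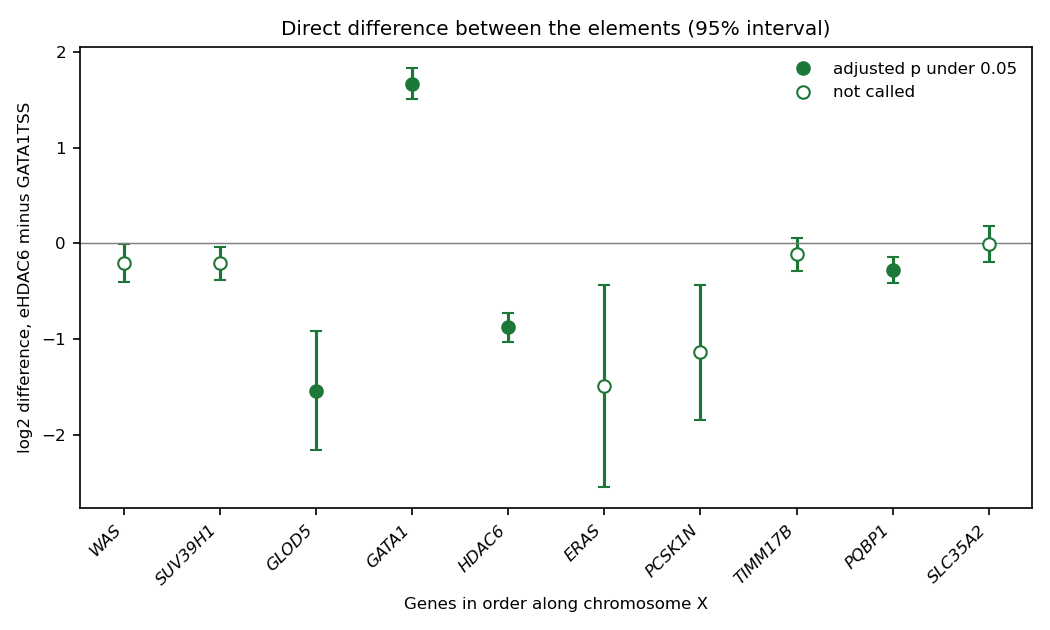
Difference between the elements (log2, eHDAC6 minus GATA1TSS, y axis) for the 10 genes in their order along chromosome X (x axis), with unadjusted 95% intervals; filled points have an edgeR adjusted p under 0.05. GATA1 is at 1.67, HDAC6 at -0.88, GLOD5 at -1.54 and PQBP1 at -0.27, and the intervals of SLC35A2 and TIMM17B include 0.

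Per kilobase of exon, GATA1 was by far the most abundant of the 10 transcripts in NC, at 245.5 RPKM (mean of 12 libraries), followed by TIMM17B at 71.7, PQBP1 at 55.6, HDAC6 at 42.7, WAS at 30.6, SUV39H1 at 18.5 and SLC35A2 at 12.1 RPKM. GLOD5, PCSK1N and ERAS followed at 2.97, 0.519 and 0.425 RPKM. In NC the library ranges of neighbours in this order overlapped for TIMM17B and PQBP1, for HDAC6 and WAS and for PCSK1N and ERAS, and otherwise did not. With eHDAC6 GATA1 remained first, at 171 RPKM, and WAS (49.2 RPKM) stood above HDAC6 (33.6 RPKM) in 6 of 6 libraries, the reverse of 11 of 12 NC libraries. In the 4, however, WAS and HDAC6 were nearly level on average, at 38.4 and 39.3 RPKM, and in the 8 they stood at 26.7 and 44.4 RPKM. With GATA1TSS GATA1 was the fifth, at 57.4 RPKM, behind TIMM17B (74.1), HDAC6 (62.0), PQBP1 (60.6) and WAS (58.4), and the ranges of neighbours among these 5 overlapped. The order differed between the 2 sgRNAs: GATA1 stood at 35.9 RPKM with GATA1TSS-Guide2, below WAS and HDAC6 in 3 of 3 libraries, and at 78.8 RPKM with GATA1TSS-Guide1, where it was still first on average.

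The genes whose 8 sgRNA means of log2 CPM were most like those of GATA1, among 9969 genes with at least 5 CPM, were DHRS11 (Pearson r 0.990), POLR3E (0.985), FADS1 (0.982), EPOR (0.978) and GID4 (0.978). DHRS11, for example, averaged 6.31 and 6.32 on the log2 CPM scale with eHDAC6-Guide2 and eHDAC6-Guide1, 5.84 and 6.13 with GATA1TSS-Guide2 and GATA1TSS-Guide1, and 6.3997 to 6.51 with the NC sgRNAs. For HDAC6 they were FAM168A (0.962), SP6 (0.953), SIK3 (0.948), CSNK1G1 (0.930) and ZCCHC14 (0.916). Within the locus GATA1 had an r of -0.75 with HDAC6 and -0.83 with WAS, and HDAC6 had 0.92 with PQBP1. These are descriptions over 8 means that share libraries, depth and the split of the controls.

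Partners of GATA1 elsewhere in the genome were also measured. Of 11 genes tested from a list of its complex partners and coregulators, 2 rose and 3 fell with eHDAC6, and 1 rose and 5 fell with GATA1TSS, with median changes of -0.0025 and -0.059. Of all genes tested, 31.1% were called with eHDAC6 and 27.2% with GATA1TSS. Against the 4, 0 of the partners were called with eHDAC6 and 3 fell with GATA1TSS, where 1.49% and 10.2% of all genes tested were called. KLF1, the erythroid Krüppel-like factor, averaged 162 CPM with eHDAC6, 112 CPM with GATA1TSS and 208 CPM in NC, and fell with eHDAC6 (log2 change -0.36, edgeR adjusted p = 5.27e-05) and with GATA1TSS (log2 change -0.96, edgeR adjusted p = 1.91e-11). Against the 4 its eHDAC6 value was -0.25 (edgeR adjusted p = 0.0564) and its GATA1TSS value -0.85. LDB1, the bridging subunit of the complex, and NFE2, a leucine-zipper factor of the same lineages, fell with GATA1TSS (log2 changes -0.47 and -0.23, and -0.49 and -0.22 against the 4). CBFA2T3, a corepressor of the complex, rose with both elements (0.47 and 0.37) but was not called against the 4.

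Paralogs of the members were counted as well. Of 20 tested, 2 rose and 4 fell with eHDAC6, and 1 rose and 3 fell with GATA1TSS. Among all genes tested, 31.1% and 27.2% were called, so these counts say little about the paralogs. GATA2, the paralog that precedes GATA1 in blood development, averaged 280.4 CPM with eHDAC6, 252 CPM with GATA1TSS and 218 CPM in NC. It rose with both (log2 changes 0.38 and 0.22), and its values against the 4 were 0.05 and -0.11, neither called. Against the 4 the 1 call was HDAC7, a class IIa deacetylase, which fell with GATA1TSS (log2 change -0.43). Farther out on chromosome X, of 37 tested genes that start beyond SLC35A2 or WAS within 1 Mb of GATA1, 9 rose and 3 fell with eHDAC6 and 10 rose and 4 fell with GATA1TSS. The shares of all genes tested were again 31.1% and 27.2%. Against the 4 the counts of these genes were 1 and 0, and 3 and 2, where 1.49% and 10.2% of all genes tested were called. The 22 near-identical GAGE copies in the same interval, to which reads cannot be assigned with certainty, were counted apart: 22 fell with eHDAC6 and 8 with GATA1TSS, and 0 were called against the 4.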

How the data were processed

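Per the labels' protocols, strand-specific paired-end libraries were made from polyadenylated K562 RNA, and samples were grouped by the sgRNA in their titles. The authors deposited raw counts per gene symbol for 24 libraries and RefSeq gene models on hg19. Per the submitters' processing notes, the tools were TopHat2 2.0.8, Bowtie2 2.1.0, SAMtools 0.1.19 and Picard. The sources used here do not name the counting tool or say how strand and read pairs were handled. Among counts of 1 to 10, 55.6% were even, so precision may be lower than the counts imply.

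Counts were scaled by TMM factors (0.951 to 1.03) and tested with edgeR 4.0.16 in R 4.3.3 (quasi-likelihood F test, 1 coefficient per sgRNA, filter by sgRNA with minimum count 10, minimum total 15 and proportion 0.7). Element effects are means of sgRNA coefficients, and p-values were adjusted over all 13147 genes tested by Benjamini-Hochberg. Standard errors and 95% intervals come from the F statistic. For ERAS and the other weakly expressed genes they are approximate. The script was tested on simulated data. Alternatives included DESeq2 1.42.0, other scalings, filters, models and control subsets, and each library or sgRNA left out. All 10 genes are named, while of the list members only some of those called are named. The members, lists and alternatives were chosen with earlier results of these data known. Of the list of GATA1 partners, 11 of 13 genes were analysed here.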

Additional observations from a re-analysis of the deposited data

Results flagged for a closer look

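For 4 of the 10 genes the effects of eHDAC6 and GATA1TSS differed in a direct test of the difference. GATA1 had a log2 difference, eHDAC6 minus GATA1TSS, of 1.67 (edgeR adjusted p = 1.13e-13), with all 6 eHDAC6 libraries above all 6 GATA1TSS libraries. HDAC6 had one of -0.88 (edgeR adjusted p = 5.33e-08), with all 6 eHDAC6 libraries below all 6 GATA1TSS libraries. GLOD5 had one of -1.54 (edgeR adjusted p = 0.00742), at under 5 CPM in every library. PQBP1 had one of -0.27 (edgeR adjusted p = 0.0327). No library stood far from the others in the 20 groups of 6 libraries that were checked (10 genes with 2 elements, by Dixon's criterion at the 95% level). Each group pooled 2 sgRNAs, whose difference can widen the range and hide a deviant library. The NC libraries were not checked in this way. Among them NC-Guide2 replicate 1 had the lowest level of GATA1, HDAC6, SUV39H1, TIMM17B and SLC35A2.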

How the results depend on the processing

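The results were recomputed under other settings (another tool, scaling, filter, model or control subset) and with each library or sgRNA left out. With libraries or sgRNAs left out, 900 values kept their direction and call, 18 lost and 11 gained a call, and 22 turned direction. Under other settings these numbers were 592, 27, 21 and 18. GATA1, HDAC6, WAS and GLOD5 kept their calls with eHDAC6 whichever library or sgRNA was left out (GATA1 -0.55 to -0.47, HDAC6 -0.39 to -0.28). The lowest and highest GATA1TSS values in those fits were -2.74 and -1.63 for GATA1, and 0.38 and 0.69 for HDAC6. With counts summed per sgRNA, GATA1 (-0.51, edgeR adjusted p = 0.150) and HDAC6 (-0.34, edgeR adjusted p = 0.108) did not pass with eHDAC6. The numbers of the 10 called were then 0 with eHDAC6 (1.93% of all genes tested), 3 with GATA1TSS (4.59%) and 0 between the elements (0%). That setting leaves 1 value per sgRNA. HDAC6 with eHDAC6 also did not pass against the 4 (-0.23) or with the control subset as a term (-0.18), where 1 of the 10 was called with eHDAC6 (0.829% of all genes). Without the sgRNA GATA1TSS-Guide2, 3 were called with GATA1TSS (12.5% of all genes) and 2 between the elements (0.0307%). Between the elements, 2 were called with 1 coefficient per element (0.106% of all genes), 2 without the sgRNA eHDAC6-Guide2 (0.343%) and 7 with the 4 (4.9%), ERAS and PCSK1N among them, which reached that fit only through GATA1TSS libraries. The cause was not tested.

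Directions turned as follows, without a call except for ERAS. Against the 4 with eHDAC6, the fitted log2 values were 4.78 for ERAS (no bound, since those libraries had no count), 0.43 for PCSK1N, 0.064 for TIMM17B and -0.0077 for SLC35A2. With the control subset as a term they were 0.057 for SUV39H1, 4.51 for ERAS, 0.082 for PCSK1N and 0.069 for TIMM17B. By sgRNA against the 4, ERAS was at 4.74 and 4.83 and TIMM17B at 0.050 and 0.078 with eHDAC6-Guide2 and eHDAC6-Guide1, SLC35A2 at -0.027 with eHDAC6-Guide2 and -0.011 with GATA1TSS-Guide2, and GLOD5 at 0.67 with GATA1TSS-Guide1. GLOD5 with GATA1TSS was at -0.086 against the 8. Without TMM factors, the GATA1TSS sgRNAs differed by 0.011 for SUV39H1 and 0.020 for TIMM17B. With a library left out, ERAS with eHDAC6 lay between -0.39 and 1.04, PCSK1N with eHDAC6 between -0.30 and 0.12, GLOD5 with GATA1TSS between -0.025 and 0.36, and SLC35A2 between the elements from -0.057 to 0.037. With an sgRNA left out, ERAS (0.25) and PCSK1N (0.21) with eHDAC6 turned without NC-Guide2, PCSK1N (0.38) without eHDAC6-Guide1 and GLOD5 with GATA1TSS (-0.18) without GATA1TSS-Guide2. Between the elements, WAS (0.15) turned without GATA1TSS-Guide2, and SLC35A2 without eHDAC6-Guide2 (0.017) and without GATA1TSS-Guide1 (0.012). ERAS had too few counts to be tested with eHDAC6 in a fit of only those 2 groups, or without GATA1TSS-Guide1, GATA1TSS-Guide2 or NC-Guide1.

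Libraries of different sgRNAs with the same replicate number were on the median hardly more alike than others (median correlation of deviations 0.0158 over 84 pairs, against -0.0059 over 168 pairs of different number). The highest correlations were 0.43 and 0.25, and a median cannot show whether some of the libraries were paired. With a replicate block, GATA1 was at -0.52 and HDAC6 at -0.34 with eHDAC6, and -2.19 and 0.54 with GATA1TSS, and the numbers of the 10 called were 4 with eHDAC6 (31% of all genes), 5 with GATA1TSS (27.6%) and 4 between the elements (1.69%). Depth limits GLOD5, ERAS and PCSK1N most, which in the shallowest library had 8, 2 and 6 counts.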
